A study of Mus musculus with 12 samples.

Results

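The mitochondrial chaperones and proteases described here are 8 nuclear genes whose protein products fold or degrade polypeptides in the mitochondrial matrix, namely Hspd1, Hspe1, Hspa9, Trap1, Dnaja3, Lonp1, Clpp and Clpx. They were chosen by name from the 22180 genes with a probe set of 1 gene symbol, and each was read through its brightest such probe set over all arrays. Dnaja3 had 3 such probe sets and every other member had 1, so all 8 members were measured. RNA from 12 female mice aged 8 to 12 weeks was hybridized to GeneChip Mouse Gene 2.0 ST arrays, 1 array to a mouse and 3 mice to a group. The groups were ischemic HDAC2-/- mice, ischemic WT mice, unischemic HDAC2-/- mice and unischemic WT mice. In the ischemic groups the renal pedicle had been clamped for 28 min (warm ischemia-reperfusion injury, IRI), the opposite kidney had been removed, and the injured kidney was taken 4 h later. HDAC2-/- mice carried floxed Hdac2 alleles and a tamoxifen-inducible CreERT2, and are named HDAC2fl/fl-ERTcre in the labels, where WT mice are named wild type ERT2cre. The paper calls the controls WT B6 mice. All groups had received 5 daily doses of tamoxifen at 100 mg/kg, followed by 7 days of recovery. The labels do not say which promoter drove the CreERT2. No sham operation was described for unischemic mice, so that ischemia, surgery and loss of the other kidney cannot be told apart. The labels give the tissue as renal cortex, and the methods describe whole kidneys.

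Mitochondria import nearly all of their proteins as unfolded chains from the cytosol. Hspa9 (mortalin, the matrix Hsp70) pulls chains inward and folds them with the help of the J-protein Dnaja3, and chains that need a closed chamber pass to the Hsp60 chaperonin Hspd1, which is capped by its lid Hspe1 (Hsp10). Trap1 is the mitochondrial Hsp90. Lonp1 is an ATP-dependent matrix protease, and Clpx unfolds substrates and feeds them to the peptidase Clpp. Misfolded protein in the matrix is known to raise transcription of such genes in a mitochondrial unfolded protein response, and Hspd1 and Hspe1 also belong to the heat shock genes bound by heat shock factors. Proximal tubule cells, the most abundant cells of the renal cortex, are rich in mitochondria.

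Hspd1 and Hspe1 lie head to head on chromosome 1 and are transcribed away from each other from a shared region, which is shown because Hspd1 passed the test after ischemia in both genotypes and Hspe1 is its partner. RefSeq (GRCm38.p6) lists promoter windows, which run from 250 bases before to 50 bases after a start, for 7 of the 8 members, with 2 starts for Hspd1. The Hspe1 window is chr1:55087898-55088197 on the plus strand, with the start at 55088148. One of the Hspd1 starts, on the minus strand, lies 216 bases away at 55087932. Capitals in the Hspe1 sequence mark a heat shock element of 4 units, with the letters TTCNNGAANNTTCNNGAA. For comparison, capitals mark a 2-unit element (TTCNNGAA) in the Clpp window, chr17:56990014-56990313 on the plus strand, and a cyclic AMP response element (TGACGTCA) in the Trap1 window, chr16:4077761-4078060 on the minus strand.
Hspe1: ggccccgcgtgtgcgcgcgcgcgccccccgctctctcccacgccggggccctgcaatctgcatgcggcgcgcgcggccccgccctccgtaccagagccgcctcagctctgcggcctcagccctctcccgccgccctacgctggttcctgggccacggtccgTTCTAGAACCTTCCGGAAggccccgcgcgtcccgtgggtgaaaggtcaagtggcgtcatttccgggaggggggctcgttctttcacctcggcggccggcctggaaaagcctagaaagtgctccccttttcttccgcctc
Clpp: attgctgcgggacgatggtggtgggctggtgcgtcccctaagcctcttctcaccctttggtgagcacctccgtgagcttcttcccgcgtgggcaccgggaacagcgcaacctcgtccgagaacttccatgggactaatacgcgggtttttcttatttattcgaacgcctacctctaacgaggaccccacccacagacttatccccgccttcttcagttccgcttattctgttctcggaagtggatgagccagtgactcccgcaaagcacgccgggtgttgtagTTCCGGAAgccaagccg
Trap1: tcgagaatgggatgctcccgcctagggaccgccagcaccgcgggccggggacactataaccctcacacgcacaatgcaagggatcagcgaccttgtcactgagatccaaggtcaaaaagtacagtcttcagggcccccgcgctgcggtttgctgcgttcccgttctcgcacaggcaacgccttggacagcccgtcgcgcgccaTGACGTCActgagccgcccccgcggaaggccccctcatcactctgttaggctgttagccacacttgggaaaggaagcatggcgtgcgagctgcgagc

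The 4-unit element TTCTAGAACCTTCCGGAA spanned chr1:55088059-55088076. It lay at positions -89 to -72 from the Hspe1 start and, read from the other strand as TTCCGGAAGGTTCTAGAA, at -144 to -127 from the Hspd1 start at 55087932. It therefore stood in the Hspe1 window and in the window of this Hspd1 start as 1 and the same stretch. The other Hspd1 start, at 55088243, lies downstream of the Hspe1 start, and its window held a CCAAT box and no heat shock element. Of 32851 promoter windows in the RefSeq table, 5 (0.0152%) held a 4-unit element in the letter order given above. Those windows belonged to Hspd1, Hspe1, Arpc2, Fam149a and Chordc1. A 4-unit element with its units in the opposite order was not searched, so 0.0152% is the share of this letter order only. A 3-unit element (TTCNNGAANNTTC, either strand) stood in 0.603% of windows and a 2-unit element in 8.52%. Among the other members, Clpp had a 2-unit match at positions 33 to 40 after its start. Trap1 had the palindromic cyclic AMP response element at -47 to -40, which 1.79% of windows held, and Lonp1 had its core TGACGT, which 7.51% held on either strand, at -7 to -2. The only match in the windows of Clpx and Dnaja3 was a CCAAT box (CCAAT on either strand, in 37.4% of windows). The composite site of C/EBP and ATF factors (TGATGCAA, in 0.895% of windows) was in none of the members' windows. The tail-to-tail form of the 2-unit element (GAANNTTC, 7.86% of windows) occurred in members only inside the 4-unit element. All motifs were searched on both strands as exact matches, and matches of the shorter forms overlap the longer ones.

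**Figure D1:**
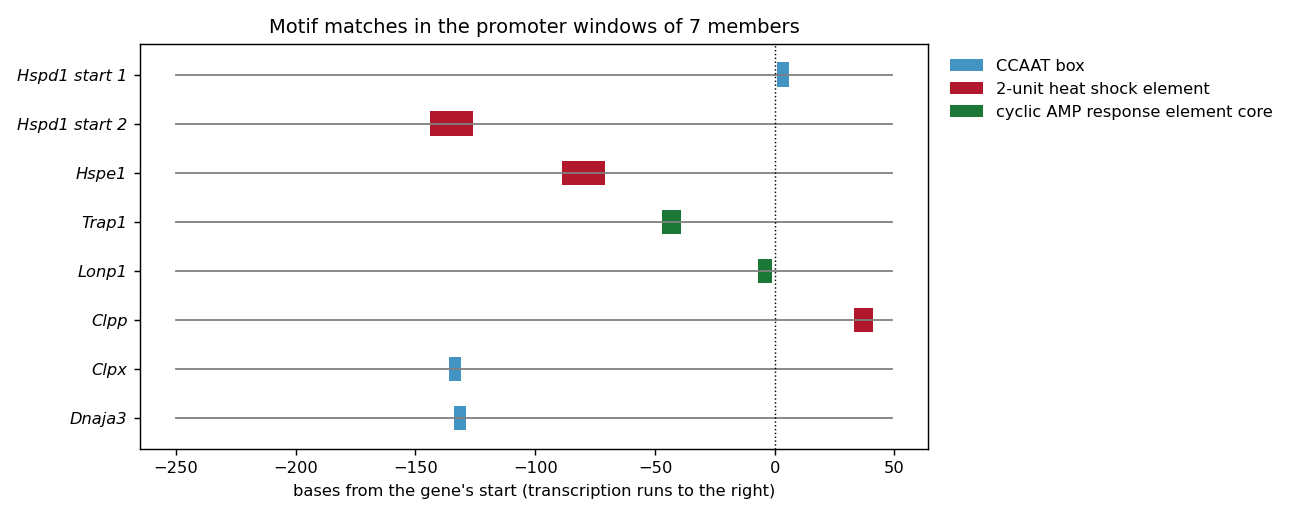
Motif matches (coloured bars) in the promoter windows of 7 members, with the x axis in bases from the start and transcription running to the right. The bars before the Hspe1 start (-89 to -72) and before start 2 of Hspd1 (-144 to -127) are the same heat shock element, and Clpp has a shorter match at 33 to 40.

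Facts of the whole series bear on the members as follows. Array medians were 5.62 to 5.76 on the log2 scale, and arrays of 1 group correlated at 0.983 to 0.994 across 34472 probe sets. Signals in this report are RMA values on the log2 scale. Differences are between group means on that scale, tested with limma and adjusted over all probe sets, and a gene passed the test at an adjusted p under 0.05. The probe set of the deleted gene Hdac2 gave 7.95 to 8.32 in ischemic HDAC2-/- against 7.93 to 8.17 in ischemic WT kidneys, and 7.68 to 8.45 in unischemic HDAC2-/- against 7.85 to 8.01 in unischemic WT kidneys, so this probe set is no check of the deletion. Proximal tubule markers were high in every group, and 0 of 7 passed the test after ischemia in either genotype. For each marker list, signals were summed on the linear scale and the sum was turned back to log2, so that the brightest marker weighs most. This summed log2 signal was, for proximal tubule markers, 15.43 to 15.68 in ischemic HDAC2-/- and 15.50 to 15.66 in ischemic WT kidneys. It was 15.49 to 15.83 in unischemic HDAC2-/- and 15.55 to 15.72 in unischemic WT kidneys. Neutrophil markers rose after ischemia, 3 of 4 in HDAC2-/- and 2 of 4 in WT mice, with a summed log2 signal of 7.59 to 8.67 in ischemic HDAC2-/-, 7.16 to 9.02 in ischemic WT, 6.73 to 6.85 in unischemic HDAC2-/- and 6.50 to 7.14 in unischemic WT kidneys. Endothelial markers were mixed. Cdh5 rose in both genotypes and Pecam1 in WT mice, while Kdr was at -0.45 in HDAC2-/- (unadjusted p = 0.0423, adjusted p = 0.27, limma) and -0.11 in WT mice, with a summed log2 signal of 11.26 to 11.52 in ischemic HDAC2-/-, 11.49 to 11.56 in ischemic WT, 10.88 to 11.09 in unischemic HDAC2-/- and 11 to 11.13 in unischemic WT kidneys. Of 3 macrophage markers only Cd68 passed, at 1.33 in HDAC2-/- and 1.21 in WT mice, while Adgre1 (-0.29 and -0.28) and C1qa (-0.20 and -0.39) did not pass, and the summed log2 signal was 10.08 to 10.23 in ischemic HDAC2-/-, 9.86 to 10.51 in ischemic WT, 9.46 to 9.82 in unischemic HDAC2-/- and 9.59 to 9.73 in unischemic WT kidneys. Of 3 intercalated cell markers only Slc4a1 passed, and it fell by 1.31 in HDAC2-/- and by 1.62 in WT mice. Slc26a4 had means of 8.21 in ischemic and 8.76 in unischemic HDAC2-/- kidneys, and of 9.06 and 8.46 in WT kidneys. Atp6v1g3 had means of 9.62 and 10.09 in HDAC2-/- kidneys and of 9.92 and 10 in WT kidneys. The summed log2 signal was 10.17 to 10.61 in ischemic HDAC2-/- and 10.62 to 10.88 in ischemic WT kidneys. It was 10.88 to 11.22 in unischemic HDAC2-/- and 10.81 to 11.29 in unischemic WT kidneys. In WT mice 1 of 2 markers of the distal convoluted tubule (Pvalb, -0.96) also passed as lower. So did 1 of 3 of collecting duct principal cells (Fxyd4, -0.67). In HDAC2-/- mice 0 of these markers passed. The others did not pass in WT mice. Their means in ischemic and unischemic WT kidneys were 12.96 and 12.92 (Slc12a3), 11.26 and 11.18 (Aqp2) and 10.11 and 10.54 (Aqp3). In HDAC2-/- kidneys the means were 9.15 and 9.80 (Pvalb), 12.50 and 12.98 (Slc12a3), 9.61 and 9.77 (Fxyd4), 11.82 and 11.27 (Aqp2) and 10.30 and 10.53 (Aqp3). The median difference of the distal convoluted tubule markers was -0.57 in HDAC2-/- and -0.46 in WT mice. The part of such cells in the members' changes was not tested. In bulk tissue, fewer cells of a type and less RNA per cell cannot be told apart.

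At 4 h after ischemia the Hsp60 and Hsp10 chaperonin transcripts and the matrix Hsp70 transcript were higher, and Trap1, Lonp1, Clpp, Clpx and Dnaja3 did not pass the test in either genotype. Hspd1 passed the test in HDAC2-/- and in WT mice, Hspe1 in HDAC2-/- mice and Hspa9 in WT mice. In each genotype 2 of 8 members were thus called higher and 0 lower, against 2.94% of all probe sets called higher in HDAC2-/- mice and 6.55% in WT mice (called lower, 1.97% and 7.17%). All probe sets include many dim ones, while the members' means lay at percentiles 80.6 to 97.4. In a fit of probe sets with a mean log2 of at least 5, calls in either direction were 9.4% in HDAC2-/- and 24.4% in WT mice. Over all probe sets these shares were 4.91% and 13.7%. At an unadjusted p under 0.05, 3 members passed in HDAC2-/- mice and 4 in WT mice, against 16.9% and 25.1% of probe sets. Together with a change of at least 2-fold, this left Hspd1 and Hspe1 in HDAC2-/- mice (1.78% of probe sets) and Hspd1 in WT mice (3.41%). The median log2 difference of the 8 members was -0.04 in HDAC2-/- mice and 0.33 in WT mice, beside -0.01 and -0.02 over all probe sets. Arrays of ischemic and unischemic kidneys did not overlap for 3 members that were higher in HDAC2-/- mice (Hspd1, Hspe1 and Hspa9, where 9.91% of probe sets were higher without overlap) and for 3 that were higher in WT mice (Hspd1, Hspa9 and Clpx, against 13% of probe sets). Clpp was lower without overlap in WT mice, as were 15.3% of probe sets, and no member was in HDAC2-/- mice, against 10.2% of probe sets.

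**Figure D2:**
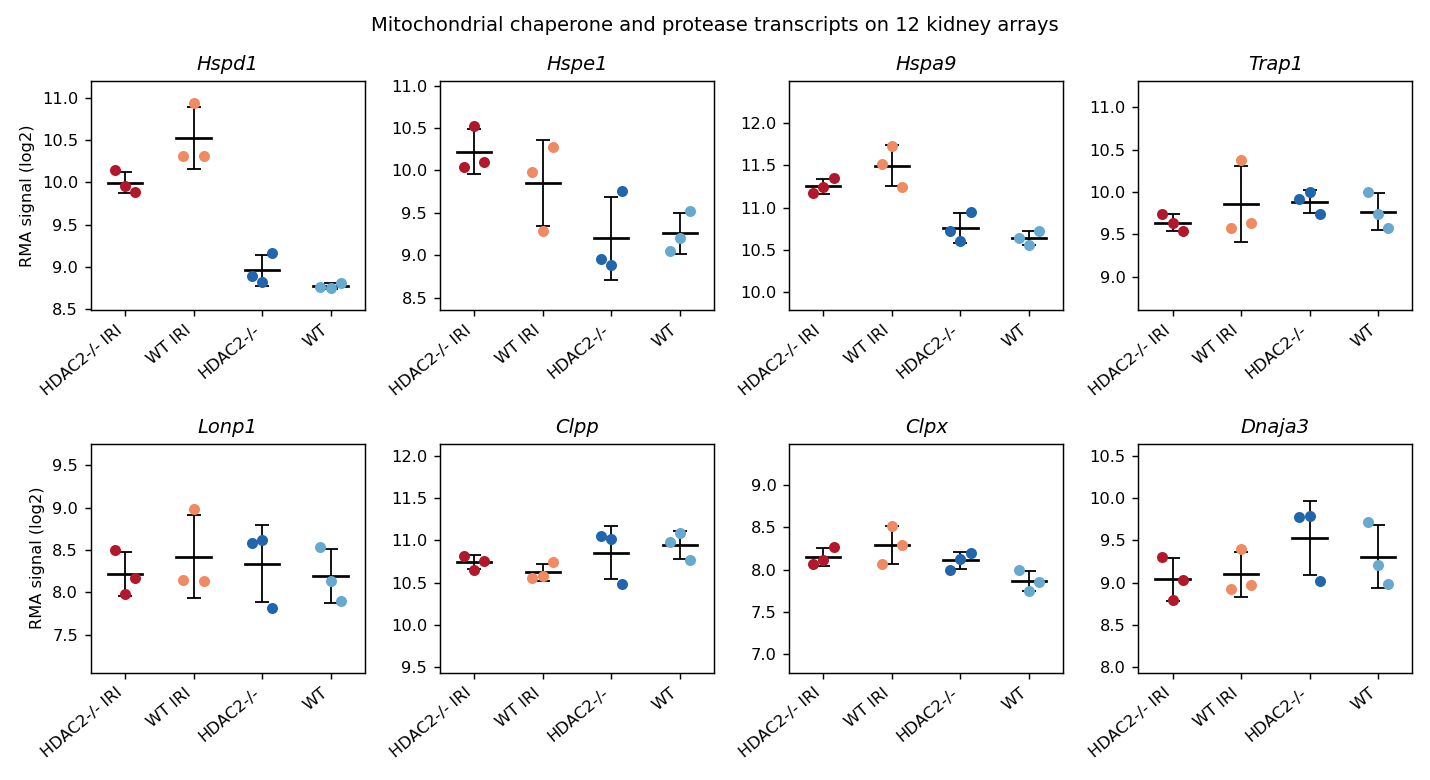
RMA signal (log2 scale) of each member on all 12 arrays, with points for single mice and bars for the group mean ± SD (n = 3). All panels span the same log2 range, and the ischemic groups stand clear of the unischemic ones for Hspd1 and Hspa9.

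Hspd1, the chamber of the chaperonin, had the largest rise of the members in WT mice and about the same rise as Hspe1 in HDAC2-/- mice. Its log2 signal was 10.14, 9.96 and 9.89 in ischemic HDAC2-/- kidneys and 10.31, 10.94 and 10.31 in ischemic WT kidneys. Unischemic HDAC2-/- kidneys gave 8.89, 8.82 and 9.17 and unischemic WT kidneys 8.77, 8.75 and 8.81. Every array of 1 group stood apart from every array of the other groups, and the order from the highest was ischemic WT, ischemic HDAC2-/-, unischemic HDAC2-/- and unischemic WT. The neighbours ischemic HDAC2-/- and unischemic HDAC2-/- differed in the test, and the pairs of 2 genotypes in 1 state did not pass it. The rise after ischemia was 1.04 in HDAC2-/- mice (2.05-fold, SE 0.17, adjusted p = 0.00306, limma). In WT mice it was 1.74 (3.35-fold, SE 0.17, adjusted p = 3.87e-05, limma). Hspd1 passed the test in both genotypes without any 1 of the 12 arrays, with rises of 0.97 to 1.14 in HDAC2-/- and 1.53 to 1.85 in WT mice.

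Hspe1, the lid of the same chamber, varied more within its groups. Ischemic HDAC2-/- kidneys gave log2 signals of 10.04, 10.53 and 10.10, and ischemic WT kidneys gave 9.98, 9.29 and 10.28. Unischemic HDAC2-/- kidneys were at 8.95, 8.88 and 9.76 and unischemic WT kidneys at 9.05, 9.20 and 9.52. Ischemic WT replicate 2 lay inside the range of unischemic WT kidneys, whereas all ischemic HDAC2-/- arrays were above all unischemic HDAC2-/- arrays. The difference was 1.03 in HDAC2-/- mice (2.04-fold, SE 0.27, adjusted p = 0.043, limma) and 0.59 in WT mice (1.51-fold, SE 0.27, adjusted p = 0.183, limma). The call in HDAC2-/- mice was lost when any 1 of 8 arrays was left out, namely WT replicates 1 and 2, HDAC2-/- replicates 1 and 2, ischemic WT replicate 1 and all ischemic HDAC2-/- replicates, with differences of 0.87 to 1.12 and adjusted p of 0.0511 to 0.192. The order of the means from the highest was ischemic HDAC2-/- (10.22), ischemic WT (9.85), unischemic WT (9.26) and unischemic HDAC2-/- (9.20), and no neighbours in this order passed the test.

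Hspa9, the matrix Hsp70, was the brightest member. Its log2 signal was 11.17, 11.24 and 11.35 in ischemic HDAC2-/- kidneys and 11.51, 11.73 and 11.25 in ischemic WT kidneys. Unischemic HDAC2-/- kidneys gave 10.72, 10.61 and 10.95, and unischemic WT kidneys gave 10.64, 10.56 and 10.72. All 6 ischemic arrays were above all 6 unischemic arrays, while the genotypes overlapped in each state, and the order of the means was that of Hspd1. The difference after ischemia was 0.49 in HDAC2-/- mice (1.41-fold, SE 0.15, adjusted p = 0.077, limma), and it passed without ischemic WT replicate 2 (0.49, adjusted p = 0.0462) or HDAC2-/- replicate 3 (0.59, adjusted p = 0.0361). In WT mice Hspa9 rose by 0.86 (1.81-fold, SE 0.15, adjusted p = 0.00192, limma).

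Dnaja3, the J-protein that stimulates Hspa9, was not higher after ischemia on its brightest probe set. Its log2 signal was 9.30, 8.79 and 9.03 in ischemic HDAC2-/- kidneys and 8.92, 9.40 and 8.97 in ischemic WT kidneys. Unischemic HDAC2-/- kidneys gave 9.77, 9.79 and 9.02, and unischemic WT kidneys gave 9.72, 9.21 and 8.99. The groups overlapped throughout, with HDAC2-/- replicate 3 far below the other unischemic HDAC2-/- arrays. The difference after ischemia was -0.49 in HDAC2-/- mice (SE 0.24, adjusted p = 0.327, limma; 95% CI -0.998 to 0.02) and -0.21 in WT mice (SE 0.24, adjusted p = 0.67, limma). The other Dnaja3 probe sets were dim, with means of 5.14 and 4.01, and ran the other way, at 0.36 and 0.14 in HDAC2-/- mice and 0.27 and 0.31 in WT mice. None of these passed the test.

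Trap1, the mitochondrial Hsp90, kept within a narrow range apart from 1 array. Ischemic HDAC2-/- kidneys gave 9.74, 9.63 and 9.54 on the log2 scale and ischemic WT kidneys 9.57, 10.38 and 9.63. Unischemic HDAC2-/- kidneys gave 9.92, 10 and 9.74, and unischemic WT kidneys gave 10, 9.74 and 9.57. Only ischemic WT replicate 2 was above the unischemic arrays. The differences were -0.25 in HDAC2-/- mice (95% CI -0.67 to 0.17) and 0.09 in WT mice (95% CI -0.33 to 0.51), and the WT difference was -0.17 without ischemic WT replicate 2.

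Among the proteases, Lonp1 showed the same single high array. Its log2 signal was 8.50, 7.98 and 8.17 in ischemic HDAC2-/- kidneys and 8.15, 8.99 and 8.13 in ischemic WT kidneys. Unischemic HDAC2-/- kidneys gave 8.58, 8.62 and 7.82, and unischemic WT kidneys gave 8.54, 8.14 and 7.90. All groups overlapped. The differences after ischemia were -0.12 in HDAC2-/- mice (95% CI -0.70 to 0.45) and 0.23 in WT mice (95% CI -0.34 to 0.80, and -0.05 without ischemic WT replicate 2).

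The unfoldase Clpx and the peptidase Clpp, partners in 1 protease, differed in sign in WT mice. Clpx gave 8.07, 8.11 and 8.27 in ischemic HDAC2-/- kidneys, 8.06, 8.52 and 8.29 in ischemic WT kidneys, 8.00, 8.13 and 8.20 in unischemic HDAC2-/- kidneys and 7.99, 7.75 and 7.85 in unischemic WT kidneys. Clpp gave 10.82, 10.65 and 10.76 in ischemic HDAC2-/- kidneys, 10.55, 10.58 and 10.74 in ischemic WT kidneys, 11.05, 11.02 and 10.49 in unischemic HDAC2-/- kidneys and 10.98, 11.09 and 10.77 in unischemic WT kidneys. In WT mice all ischemic Clpx arrays were above, and all ischemic Clpp arrays below, the unischemic ones. The Clpx difference in WT mice was 0.43 (SE 0.14, adjusted p = 0.0653, limma), which passed the test without ischemic WT replicate 1 (0.54, adjusted p = 0.0359). The Clpp difference in WT mice was -0.32 (SE 0.16, adjusted p = 0.234, limma). In HDAC2-/- mice, Clpx differed by 0.04 (95% CI -0.27 to 0.35) and Clpp by -0.11 (95% CI -0.45 to 0.23), with overlapping arrays. With 3 arrays against 3, the exact permutation test (two-sided) of a single member could not give a p under 0.1, the value it gave for each pair of groups without overlap.

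**Figure D3:**
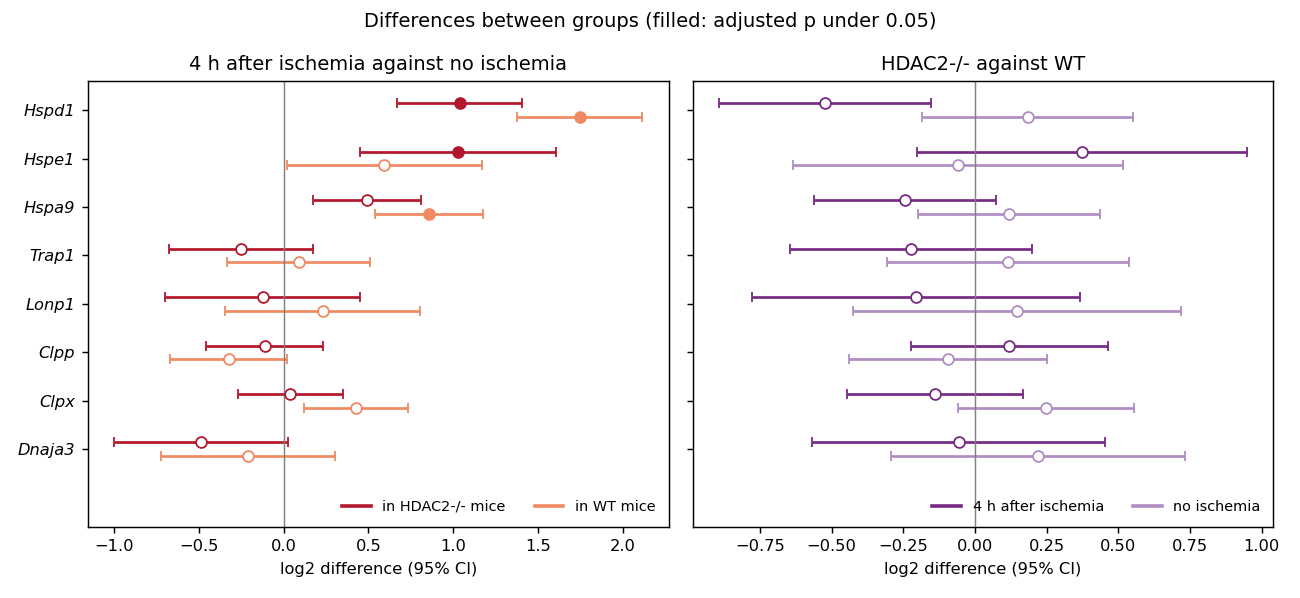
Log2 differences of the 8 members with 95% confidence intervals, for ischemic against unischemic kidneys (left) and HDAC2-/- against WT kidneys (right). Filled points passed the test, which were Hspd1 and Hspe1 in HDAC2-/- mice and Hspd1 and Hspa9 in WT mice on the left and none on the right.

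Between the genotypes, no member passed the test, either 4 h after ischemia or without it, and no probe set of all 34472 did (0%). The ischemic genotypes were furthest apart in Hspd1, where all 3 ischemic HDAC2-/- arrays (9.89 to 10.14) were below all 3 ischemic WT arrays (10.31 to 10.94). This difference was -0.52 (SE 0.17, 95% CI -0.89 to -0.15, unadjusted p = 0.00886, adjusted p = 0.713, limma), and -0.31 without ischemic WT replicate 2. It was the only member with an unadjusted p under 0.05, against 6.59% of all probe sets, and the only one without overlap, against 4.08% of probe sets that were lower and 5.99% that were higher without overlap. Hspe1 differed by 0.37 (95% CI -0.20 to 0.95), Hspa9 by -0.24 (95% CI -0.56 to 0.07), Trap1 by -0.22 (95% CI -0.65 to 0.20) and Lonp1 by -0.21 (95% CI -0.78 to 0.37). The median of the 8 members was -0.17, beside 0.01 over all probe sets. Without ischemic WT replicate 2, Trap1 (0.04), Lonp1 (0.08) and Dnaja3 (0.10) changed sign.

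In unischemic kidneys the members' differences between HDAC2-/- and WT were small. Hspd1 was at 0.18 (SE 0.17, adjusted p = 0.9999, limma) and Clpx at 0.25 (SE 0.14, adjusted p = 0.9999, limma), and these 2 members were higher in HDAC2-/- mice without overlap, against 3.79% of probe sets, and 0 were lower without overlap, against 3.83%. At an unadjusted p under 0.05, 0 members and 2.38% of probe sets passed. The members' median was 0.13, beside 0.00 over all probe sets.

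The test of the difference between the responses, which asks whether ischemia moved a member differently in HDAC2-/- and in WT mice, called 0 members and 0% of probe sets. Hspd1 had the smallest p, with a response in HDAC2-/- mice less that in WT mice of -0.71 (95% CI -1.23 to -0.18, unadjusted p = 0.0116, adjusted p = 0.956, limma), and 4.19% of probe sets had an unadjusted p under 0.05. It was -0.50 without ischemic WT replicate 2. Hspe1 lay on the other side at 0.43 (95% CI -0.38 to 1.25). Hspa9 did not pass the test in HDAC2-/- mice and passed in WT mice, and its responses differed by -0.36 (95% CI -0.81 to 0.08, adjusted p = 0.956, limma). The reverse held for Hspe1, and neither difference was shown.

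Within the groups, Hspe1, Lonp1, Dnaja3 and Trap1 moved together with a feature of the whole array. How many other probe sets did so as closely was not counted, so the relation is not shown to be particular to these members. The strongest shared pattern of deviations from group means (first component) held 34.9% of their variance over all probe sets. Small nuclear and small nucleolar RNAs, short noncoding RNAs of the splicing and ribosome machinery, were measured by 85 probe sets. Their mean level was 8.57 to 9.23 in ischemic HDAC2-/-, 8.02 to 8.92 in ischemic WT, 8.46 to 9.22 in unischemic HDAC2-/- and 8.30 to 9.05 in unischemic WT kidneys. Ischemic WT replicate 2 had the lowest level (8.02) and ischemic HDAC2-/- replicate 2 the highest (9.23). Deviations from the group means were compared over the 12 arrays by permutation of arrays inside their groups (1296 arrangements, two-sided, exact), for 8 members in 1 family. Hspe1 followed the small RNA level with r = 0.961 (rho = 0.916, exact p = 0.0008 for each, adjusted p = 0.00309), and Lonp1 opposed it with r = -0.977 (rho = -0.974, exact p = 0.0008 for each, adjusted p = 0.00309), where 0.0008 is the smallest p the permutations can give. Dnaja3 (r = -0.942, rho = -0.979, exact p = 0.00231 and 0.00154, adjusted p = 0.00617 and 0.00412) and Trap1 (r = -0.847, rho = -0.818, exact p = 0.00694 and 0.00772, adjusted p = 0.0139 and 0.0154) also opposed it. The 2 arrays whose small RNA deviation from the group mean lay farthest from the median deviation were then left out. Without them r was 0.946 for Hspe1, -0.967 for Lonp1, -0.949 for Dnaja3 and -0.82 for Trap1. The other members had r of -0.0598 (Hspa9), -0.337 (Hspd1), -0.355 (Clpx) and -0.542 (Clpp), with rho of 0.0909, -0.158, -0.315 and -0.538, and an exact p from 0.114 to 0.899 (adjusted p from 0.183 to 0.899).

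With the small RNA level as a covariate in the limma fit, the SE of Hspe1 was 0.12, against 0.27 without it, and both of its responses passed the test, at 0.93 in HDAC2-/- mice (adjusted p = 0.000491, limma) and 0.70 in WT mice (adjusted p = 0.00172, limma). Clpx then also passed in WT mice at 0.41 (adjusted p = 0.0484, limma). More probe sets were called in general, 8.59% of all in HDAC2-/- and 19.4% in WT mice, against 4.91% and 13.7% without the covariate. Hspd1 was at 1.06 in HDAC2-/- and 1.72 in WT mice and Hspa9 at 0.50 (adjusted p = 0.0502, limma) and 0.85. The genotype difference of Hspe1 after ischemia was 0.09 in that fit. What sets the small RNA level of an array was not tested.

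**Figure D4:**
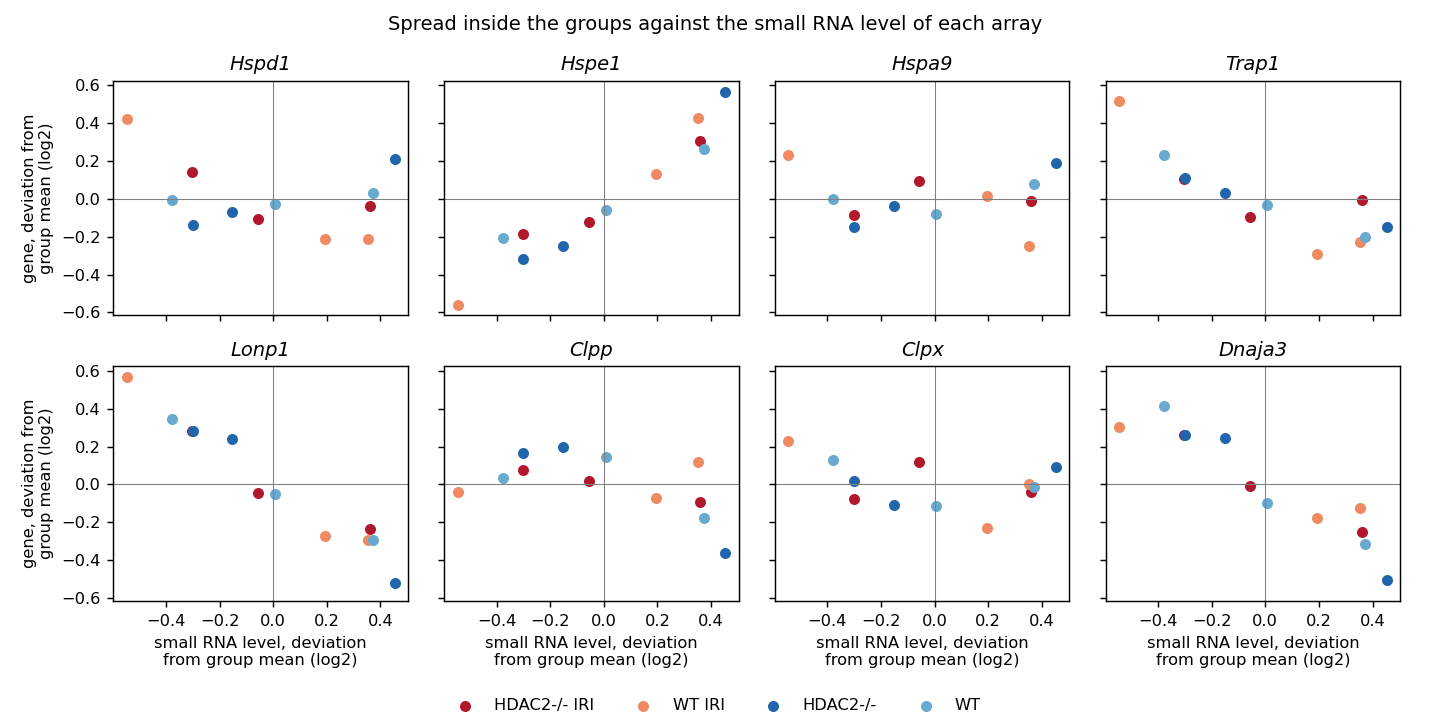
Deviation of each member from its group mean (y axis, log2) against the deviation of the small RNA level (x axis, log2) on 12 arrays, coloured by group. Hspe1 runs upward (r = 0.961), Lonp1 (r = -0.977), Dnaja3 (r = -0.942) and Trap1 (r = -0.847) run downward, and Hspa9 shows no slope (r = -0.0598).

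Pairs of members were compared in the same way. Of 28 pairs, 5 passed an adjusted p under 0.05, 3 with positive and 2 with negative r. All 5 lay among Hspe1, Lonp1, Dnaja3 and Trap1, the members that moved with the small RNA level. Relations apart from that level were tested for none of the 28 pairs, also not for Hspd1 with Hspe1. The share among other gene pairs was not counted. The positive pairs were Lonp1 with Dnaja3 (r = 0.956, rho = 0.949), Trap1 with Lonp1 (r = 0.883, rho = 0.90) and Trap1 with Dnaja3 (r = 0.75, rho = 0.825). Hspe1 opposed Lonp1 (r = -0.952, rho = -0.918) and Dnaja3 (r = -0.89, rho = -0.895). The exact permutation p of these 5 pairs was 0.000772 to 0.00463 for r (adjusted p = 0.0216 to 0.0259) and 0.000772 to 0.00617 for rho (adjusted p = 0.0216 to 0.0346). The chaperonin partners Hspd1 and Hspe1, with 1 promoter region between them, had r = -0.273 (rho = -0.123, exact p = 0.611, adjusted p = 0.684). Hspd1 and Hspa9 had r = 0.705 (rho = 0.515, exact p = 0.167, adjusted p = 0.424). The latter r was 0.286 without the 2 arrays whose Hspd1 deviation lay farthest from the median deviation.

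Other genes of mitochondrial protein handling were counted in lists, whose shares stand beside 2.94% of all probe sets called higher and 1.97% called lower in HDAC2-/- mice and 6.55% and 7.17% in WT mice. Dim probe sets are included in those percentages. Of 12 measured co-chaperones and folding factors, 1 rose and 2 fell in HDAC2-/- mice, and 1 rose and 5 fell in WT mice, with medians of -0.28 and -0.39 beside -0.01 and -0.02 over all probe sets. The gene that rose was Grpel2, a nucleotide exchange factor of Hspa9, at 0.83 in HDAC2-/- (adjusted p = 0.0401, limma) and 1.06 in WT mice (adjusted p = 0.0049, limma). Its log2 signal was 9.13, 8.49 and 8.87 in ischemic HDAC2-/-, 9.06, 9.61 and 8.70 in ischemic WT, 7.78, 8.14 and 8.07 in unischemic HDAC2-/- and 8.00, 8.04 and 8.14 in unischemic WT kidneys, with all ischemic above all unischemic arrays. Lyrm7, an assembly factor of respiratory complex III, fell by 0.49 in HDAC2-/- and by 1.15 in WT mice. Ppif, the matrix cyclophilin of the permeability transition pore, fell by 0.63 and 0.84. Hscb, a J-protein of iron-sulfur cluster assembly, fell by 0.85 in WT mice, where Bcs1l and the Hspa9 partner Dnlz also passed as lower. The calls in HDAC2-/- mice depended on single arrays. Leaving out any single WT array, HDAC2-/- replicate 1 or 2, replicate 1 of ischemic WT or replicate 3 of ischemic HDAC2-/- mice left 0 genes called. Leaving out ischemic HDAC2-/- replicate 1 left 1 lower gene, and leaving out ischemic HDAC2-/- replicate 2 or replicate 3 of ischemic WT mice left 1 higher and 1 lower.

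Of 21 measured genes of mitochondrial protein import, 0 passed in HDAC2-/- mice, and 1 rose and 5 fell in WT mice (medians -0.03 and -0.15). The gene that rose was Tomm70a, the outer membrane receptor for carrier proteins and chaperones, by 0.89 (adjusted p = 0.00762, limma). The largest falls were those of the inner membrane channel and motor genes Timm17b (-0.80), Timm50 (-0.70) and Pam16 (-0.67). In WT mice 2 genes fell without WT replicate 2 or 3 and 3 without ischemic WT replicate 2, and in HDAC2-/- mice 1 rose without HDAC2-/- replicate 3. Of 17 measured proteases and processing peptidases besides the members, 0 passed in HDAC2-/- mice, and in WT mice only Atp23, an inner membrane protease, did, at -0.44 (adjusted p = 0.0412, limma). That call was lost when WT replicates 2 or 3, HDAC2-/- replicate 2, replicates 1 or 2 of ischemic WT mice or replicate 3 of ischemic HDAC2-/- mice were left out singly. Without HDAC2-/- replicate 3, 1 rose and 1 fell in HDAC2-/- mice, and 1 rose and 2 fell in WT mice. The medians of the proteases were -0.13 and -0.11, close to those of all probe sets.

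Many cytosolic chaperones rose in both genotypes. Of 16 measured cytosolic heat shock proteins and their cofactors, 10 rose in HDAC2-/- and 12 in WT mice and 0 fell, with medians of 1.24 and 1.16. These counts were 8 to 11 and 10 to 13 when 1 array was left out. Heat shock genes were named from these same arrays before, so the list is no independent evidence of its direction. The 8 genes of the cytosolic chaperonin TRiC, which is related to Hsp60, had medians of 0.57 and 0.79. In WT mice all 8 rose, led by Cct6a (1.02), Cct3 (0.95) and Tcp1 (0.92), with 5 called without WT replicate 2 or ischemic WT replicate 2. In HDAC2-/- mice 2 rose, Cct3 (0.71) and Tcp1 (0.70), with 1 called without WT replicate 2, without HDAC2-/- replicate 1 and without ischemic HDAC2-/- replicates 2 or 3, 0 without HDAC2-/- replicate 2, and 3 and 5 without ischemic WT replicate 2 and HDAC2-/- replicate 3. Of 5 measured transcription factors linked to the mitochondrial unfolded protein response, 3 rose in each genotype. They were Cebpb (2.07 in HDAC2-/- and 1.94 in WT mice), Atf4 (1.20 and 1.11) and Ddit3, which encodes CHOP (0.97 and 1.43). In HDAC2-/- mice 2 of them were called without HDAC2-/- replicate 2.

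**Figure D5:**
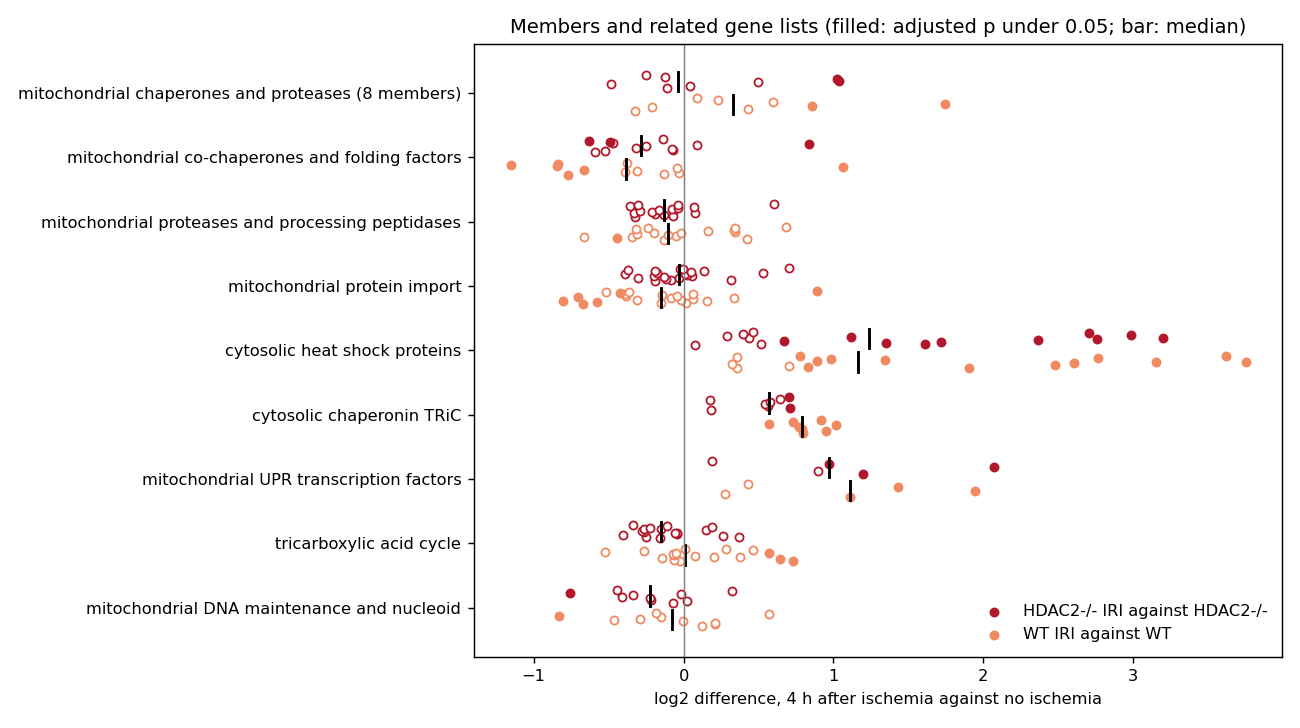
Log2 differences after ischemia of the 8 members and of 8 lists of related genes, with HDAC2-/- mice above WT mice in each row, filled points for genes that passed the test and black bars for medians. The medians of the cytosolic heat shock proteins (1.24 and 1.16), TRiC (0.57 and 0.79) and the transcription factors (0.97 and 1.11) lie to the right of those of the other rows.

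No gene of these lists passed the test between the genotypes or in the difference of the responses. The smallest p after ischemia belonged to Lyrm7, which was higher in ischemic HDAC2-/- kidneys (6.28, 6.63 and 6.46) than in ischemic WT kidneys (5.78, 5.90 and 5.90) by 0.60 (unadjusted p = 0.000432, adjusted p = 0.551, limma). The smallest of the import list was that of Pam16 at 0.41, and of the protease list that of Afg3l2, a subunit of the matrix AAA protease, at -0.38. Both had an adjusted p above 0.7.

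Over the 12 arrays, the genes whose signal was most like that of each member, by Pearson r among 22179 other genes, were as follows. The points share the ischemic and unischemic groups and the array features described above, so these values are a description. Hspd1 was most like Riok1 (r = 0.994), Morf4l2 (0.989) and Ptpn12 (0.988). Hspe1 was most like Chaserr (0.974), 2410006H16Rik (0.968) and Tmem65 (0.965). Hspa9 was most like Prom1 (0.989), Nup153 (0.989) and Med13 (0.988). The nearest genes of Trap1 were Acad8 (0.973), Pcnx (0.969) and Zcchc17 (0.959), and those of Lonp1 were Brap (0.984), Trmt44 (0.983) and Hmgxb3 (0.979). Clpp was nearest to Zdhhc7 (0.975), Nosip (0.969) and Atg9a (0.955). Clpx had lower values, with Psmd14 (0.912), Sepsecs (0.908) and Hsdl2 (0.907). Dnaja3 was nearest to Pick1 (0.972), Nomo1 (0.972) and Pnpla6 (0.969). No member appeared among the 3 nearest genes of another.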

How the data were processed

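Robust multiarray average (RMA) was run by the authors on the 12 arrays in Transcriptome Analysis Console 4.0 (background and summarization settings not given in the sources used here), and the deposited log2 values of 34472 probe sets, from 1.58 to 14.51, were used as they stand. An annotation table named 23521 probe sets with 1 gene symbol and 1820 with several, and did not list 9131. The number of arrays limits the precision. limma 3.58.1 (R 4.3.3) was fitted to all 12 arrays with 1 mean per group and an empirical Bayes step (8 residual degrees of freedom and 5.94 prior ones), with Benjamini-Hochberg adjustment. The fit was tested on simulated data. Exact permutation tests compared single members and within-group deviations. The members, the 8 lists of related genes (115 genes, 106 measured) and the markers were chosen with earlier results of these data known. The genes named are the members, the called genes of a list with the 3 largest rises and falls per ischemia comparison, otherwise the gene with the smallest p, and the 3 genes most like each member. Promoter motifs were read from RefSeq (GRCm38.p6) with Python 3.11.15, and figures were drawn with matplotlib 3.10.9. The labels do not say how the mice of a group were housed or processed, so p values measure the spread between these mice. Alternatives were median centring, quantile normalization, only probe sets of 1 symbol, a floor of 5 on the mean log2 value, only the groups compared, other empirical Bayes settings, array weights, a replicate block, the small RNA covariate, the mean over all Dnaja3 probe sets, other thresholds and leaving out each array.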

Additional observations from a re-analysis of the deposited data

How the results depend on the processing

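The count of 2 members called in HDAC2-/- mice after ischemia was 1 with quantile normalization, with only the groups compared and without the empirical Bayes step. Each time Hspe1 was lost (adjusted p = 0.0584, 0.0573 and 0.161, limma). The count was 4 with array weights, where Hspa9 (0.61, adjusted p = 0.00238) and Dnaja3 (-0.69, adjusted p = 0.0124) were added. Of all probe sets, 5.18%, 3.54%, 2.45% and 18.4% were called in these fits, against 4.91% in the main fit. Without 1 array the count of members was 1 to 3. In WT mice the count of 2 was 4 with the small RNA covariate, 1 at an unadjusted p under 0.05 with at least 2-fold, and 2 to 3 without 1 array. The covariate fit called 19.4% of all probe sets in WT mice, against 13.7% in the main fit. Hspe1 also passed in WT mice with array weights (0.77, adjusted p = 0.0211), and Clpx with quantile normalization or a mean log2 of at least 5. Of the probe sets tested, those fits called 17.4%, 13.8% and 24.4% in WT mice. The counts of 0 members between genotypes and for the difference of the responses were 0 under every alternative run. Of 877 alternative values of single members, 836 kept their direction and side of the threshold, 11 lost and 10 gained a call, and 20 changed sign. Dnaja3 averaged over its probe sets gave 0.0033 after ischemia in HDAC2-/- and 0.1222 in WT mice. With array weights, Trap1 was at -0.0502 after ischemia in WT mice and Dnaja3 at 0.0081 between the ischemic genotypes, and with the small RNA covariate the genotype differences after ischemia were 0.0812 for Lonp1 and 0.1849 for Dnaja3. Without 1 array, values ran from -0.3833 to 0.0167 (Lonp1) and -0.02 to 0.085 (Clpx) after ischemia in HDAC2-/- mice, from -0.17 to 0.235 (Trap1) and -0.0533 to 0.4033 (Lonp1) in WT mice, from -0.3683 to 0.0367 (Trap1), -0.3533 to 0.0767 (Lonp1) and -0.1867 to 0.095 (Dnaja3) between the ischemic genotypes, and from -0.3417 to 0.0983 (Hspe1) and -0.1917 to 0.0883 (Clpp) between the unischemic ones. The cause was not tested. Deviations of arrays with the same replicate number correlated at -0.373 to 0.444 (median 0.052, over 18 pairs). Those with different numbers in different groups correlated at -0.397 to 0.344 (median -0.024, over 36 pairs). Pairs of replicate 3 ran from -0.019 to 0.444. The numbers are used here to name arrays, and these values cannot tell whether arrays of 1 number shared a batch. With the replicate number as a block 2, 2, 0, 0 and 0 members were called in the 5 comparisons, as without it. Counts of the lists after ischemia also moved under the alternatives other than leaving out arrays. TRiC genes called higher were 0 to 6 in HDAC2-/- and 1 to 8 in WT mice. For cytosolic heat shock proteins these counts were 8 to 12 and 8 to 13. Co-chaperones and folding factors called lower were 0 to 6 and 1 to 5, and import genes called lower were 0 to 2 and 0 to 7.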

Other observations

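Genes of 2 other mitochondrial functions were counted in the same way. Of 17 measured genes of the tricarboxylic acid cycle, which feeds the respiratory chain, 0 passed the test after ischemia in HDAC2-/- mice (median -0.15) and 3 rose in WT mice (median 0.01), where 6.55% of all probe sets were called higher. These were Dld (0.73), Fh1 (0.64) and Sdha (0.57), with 0 called without WT replicate 1 or 2 or ischemic WT replicate 2, and 1 without WT replicate 3. In HDAC2-/- mice 1 rose without HDAC2-/- replicate 3. Of 10 genes of mitochondrial DNA maintenance, only Tfb1m, a methyltransferase of the mitochondrial ribosomal RNA, passed. It fell by 0.76 in HDAC2-/- mice (adjusted p = 0.0104, limma) and by 0.83 in WT mice (adjusted p = 0.00284, limma). In HDAC2-/- mice it was not called without HDAC2-/- replicate 2 or ischemic HDAC2-/- replicate 2, and 2 fell without HDAC2-/- replicate 3. In WT mice 1 also rose without ischemic WT replicate 1.

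The 3-unit heat shock element stood in the promoter windows of 2 of 7 members with a window (Hspd1 and Hspe1), of 1 of 21 import genes (Timm9), of 2 of 14 cytosolic heat shock genes (Chordc1 and Hsph1) and of 179 of all 27025 genes (0.662%). No gene of the lists for co-chaperones, proteases, TRiC, transcription factors, the tricarboxylic acid cycle or mitochondrial DNA had one in its window.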
